A study of Mus musculus with 16 samples.

Results

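The 9 genes *S100a8*, *S100a9*, *Retnlg*, *Lcn2*, *Ngp*, *Camp*, *Ltf*, *Mmp8* and *Ly6g* encode proteins that mouse neutrophils store in granules, hold in the cytosol in large amounts or carry on their surface. They were chosen by symbol, with earlier results of these data known. All 9 were among the 55487 genes of the count table, each with 1 gene identifier. The RNA came from mouse skin cells sorted on a flow cytometer by CD45, the pan-leukocyte surface protein, and was sequenced in bulk. The CD45-positive cells are called the immune fraction here and the CD45-negative cells the stromal fraction. Skin was stretched by suction (hypobaric pressure) and taken 6 h later, and unstretched skin of the same area served as the control. The 16 libraries form 4 groups of 4, which are stretched immune (numbered 1, 2, 7 and 8 in their titles), control immune (3, 4, 5 and 6), stretched stromal (5 to 8) and control stromal (1 to 4). The labels give no strain, genotype, age or sex and do not state whether each sample is a separate animal. The p-values therefore cover the spread among the samples alone, which may be technical.

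Neutrophils are made in the bone marrow and fill their granules in sequence as they mature. Primary (azurophil) granules come first, with myeloperoxidase and elastase, then specific granules with lactoferrin, lipocalin 2, cathelicidin and collagenase, and then gelatinase granules. Transcription of most granule genes falls as the cells leave the marrow, whereas *S100a8* and *S100a9* transcripts stay abundant in mature cells. In skin, neutrophils are scarce without injury and arrive from the blood within hours of damage.

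The promoters of the pair with the highest levels, *S100a8* and *S100a9*, are shown with that of *Retnlg*, whose values followed the pair, and that of *Lcn2*, whose values spread least among the immune libraries. Each is the 250 bases before the RefSeq transcription start (GRCm38.p6), written 5′ to 3′ in the direction of transcription. Capitals mark TTGCNNAA, the core of C/EBP factor sites, AGGAAG, a core of ETS factor sites, and TATAAA, the TATA box, found on either strand. No marked match overlapped another in these 4 stretches.
S100a8 (chr3:90668821-90669070, plus strand): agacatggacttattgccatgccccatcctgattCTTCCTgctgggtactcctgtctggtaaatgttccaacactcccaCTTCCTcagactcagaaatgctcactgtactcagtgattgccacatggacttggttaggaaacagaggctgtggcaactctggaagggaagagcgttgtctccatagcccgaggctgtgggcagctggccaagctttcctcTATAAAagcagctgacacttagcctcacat
S100a9 (chr3:90695722-90695971, minus strand): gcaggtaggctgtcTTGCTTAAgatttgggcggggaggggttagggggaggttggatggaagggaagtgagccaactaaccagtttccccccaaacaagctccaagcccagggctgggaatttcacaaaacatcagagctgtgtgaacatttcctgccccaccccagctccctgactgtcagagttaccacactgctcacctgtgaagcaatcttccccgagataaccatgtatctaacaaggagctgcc
Retnlg (chr16:48872358-48872607, plus strand): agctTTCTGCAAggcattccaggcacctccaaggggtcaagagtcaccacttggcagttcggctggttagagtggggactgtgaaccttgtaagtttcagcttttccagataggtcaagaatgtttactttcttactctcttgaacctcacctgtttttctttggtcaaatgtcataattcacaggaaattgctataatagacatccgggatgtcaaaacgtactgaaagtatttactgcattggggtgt
Lcn2 (chr2:32387740-32387989, minus strand): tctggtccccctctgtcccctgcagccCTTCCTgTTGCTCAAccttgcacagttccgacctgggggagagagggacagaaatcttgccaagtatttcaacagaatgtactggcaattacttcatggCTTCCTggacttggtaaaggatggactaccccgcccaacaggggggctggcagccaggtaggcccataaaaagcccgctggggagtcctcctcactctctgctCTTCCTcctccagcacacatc

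All 9 genes matched the promoter table, and *Ly6g* has 2 overlapping entries in it. TTGCNNAA was found before 7 of the 9 genes, all but *S100a8* and *Camp*, and in 9.56% of 32851 promoter stretches of the same length. AGGAAG was found before 6 of the 9 (29.5% of all stretches) and TATAAA before 2 of the 9, *S100a8* and *Ly6g* (12.4% of all stretches). A match describes these letters and is not evidence that a factor binds there.

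Several libraries stand apart from the rest. Total counts were 7018743 to 20095580 in stretched immune, 2645421 to 6662268 in control immune, 21955174 to 26944965 in stretched stromal and 13563586 to 20467010 in control stromal libraries, so that stretched libraries were deeper in both fractions. Control immune library 4 held 6209 CPM (read counts scaled to the library total) on 1972 olfactory and vomeronasal receptor genes, stretched stromal library 7 held 424 and stretched stromal library 8 held 208. The other 13 libraries held 18 to 69.9 CPM on them. *Ptprc*, which encodes CD45, was at 370 to 482 CPM in stretched and 320 to 568 CPM in control immune libraries, against 0.876 to 3.87 CPM in stretched and 0.0643 to 1.12 CPM in control stromal libraries. Fewer cells of a type and less RNA per cell cannot be told apart in bulk samples.

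The summed reads of the 9 genes varied more between libraries than between treatments. They came to 726, 32768, 264 and 133 CPM in stretched immune libraries 1, 2, 7 and 8, and to 6722, 2403, 8485 and 470 CPM in control immune libraries 3, 4, 5 and 6. Stretched immune library 2 was the highest, with 3.28% of all its reads on these 9 genes, and the other 3 stretched libraries lay below 3 of the 4 controls. In the stromal fraction the sum was 25.8, 11.5, 8.81 and 6.68 CPM in stretched libraries 5 to 8 and 14.3, 8.57, 9.26 and 12.4 CPM in control libraries 1 to 4, with overlapping groups.

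**Figure D1:**
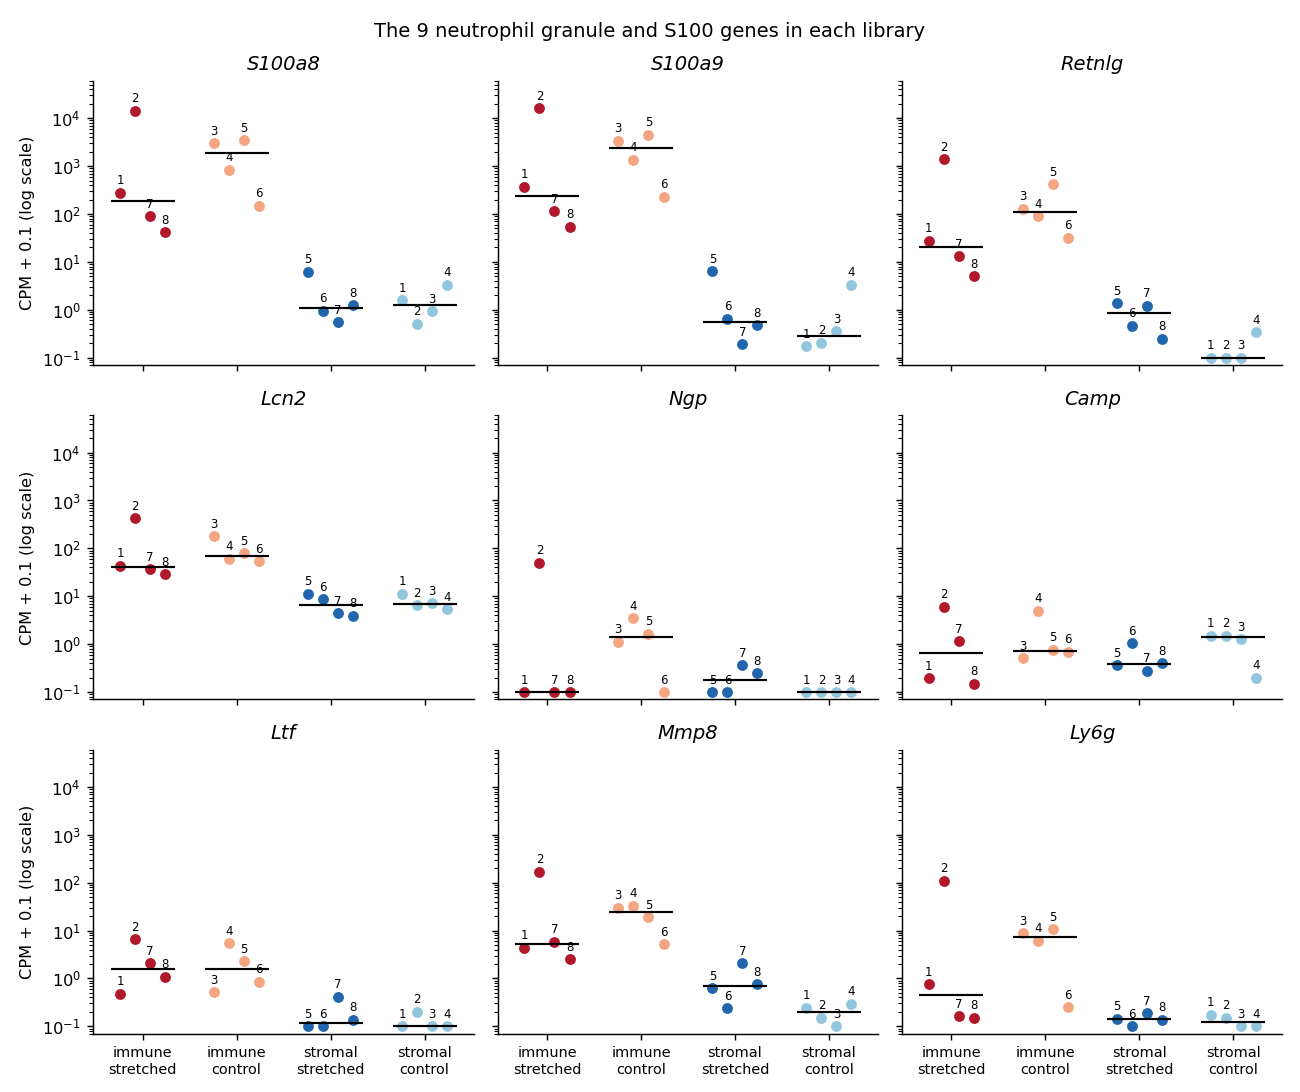
Level of each of the 9 genes in each library, as CPM plus 0.1 on a log scale, by group. Each point is 1 library with its title number and the bar is the group median. Stretched immune library 2 is the highest immune library for all 9 genes, at 14494 CPM for *S100a8*.

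*S100a8* (ENSMUSG00000056054, chromosome 3, 90668978 to 90670035, plus strand, GRCm38) encodes the smaller subunit of calprotectin, which binds calcium and zinc and, once released, acts on Toll-like receptor 4. It had 279, 14494, 90.2 and 42.1 CPM in stretched immune libraries 1, 2, 7 and 8, against 2974, 840, 3459 and 149 CPM in control immune libraries 3, 4, 5 and 6. Stretched library 2 was above all 4 controls, stretched libraries 7 and 8 were below all 4, and stretched library 1 was above control 6 alone. Means were 3726 ± 7179 CPM in stretched and 1856 ± 1609 CPM in control immune libraries (SD, n = 4 each). In stretched stromal libraries 5 to 8 the level was 6.09, 0.865, 0.445 and 1.15 CPM, and in control stromal libraries 1 to 4 it was 1.47, 0.413, 0.836 and 3.22 CPM. Stretched stromal library 5 and control stromal library 4 were the highest in their groups, and the groups overlapped.

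*S100a9* (ENSMUSG00000056071, chromosome 3, 90692632 to 90695721, minus strand) encodes the partner subunit and lies 22596 bases from *S100a8*. It had 371, 16104, 115 and 53.9 CPM in stretched immune libraries 1, 2, 7 and 8, against 3400, 1361, 4497 and 228 CPM in control immune libraries 3, 4, 5 and 6. The order of the 8 immune libraries was the same as for *S100a8*. Stretched stromal libraries 5 to 8 had 6.31, 0.547, 0.0889 and 0.371 CPM and control stromal libraries 1 to 4 had 0.0737, 0.103, 0.257 and 3.27 CPM. The high stromal libraries were again stretched 5 and control 4, with 144 and 67 reads, while the other 6 had 1 to 12 reads.

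The 2 subunits kept a near-constant proportion to each other while their level changed. Across the 8 immune libraries *S100a8* differed 344-fold between the highest and the lowest library, and the ratio of *S100a9* to *S100a8* reads ran from 1.11 to 1.62. *S100a8* reads were 16.2 to 53 times those of *Cxcr2*, the chemokine receptor of mature neutrophils, whose own level spanned 166-fold. Against *Csf3r*, the receptor of granulocyte colony-stimulating factor, the ratio was less even, at 1.32 to 24.5. In the stromal libraries with at least 10 *S100a8* reads the ratio of *S100a9* to *S100a8* was 0.2 to 1.04 in 4 stretched and 0.05 to 1.02 in 3 control libraries, below every immune value. These ratios describe libraries that share no reads but were prepared alike, and no test was made of them.

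**Figure D2:**
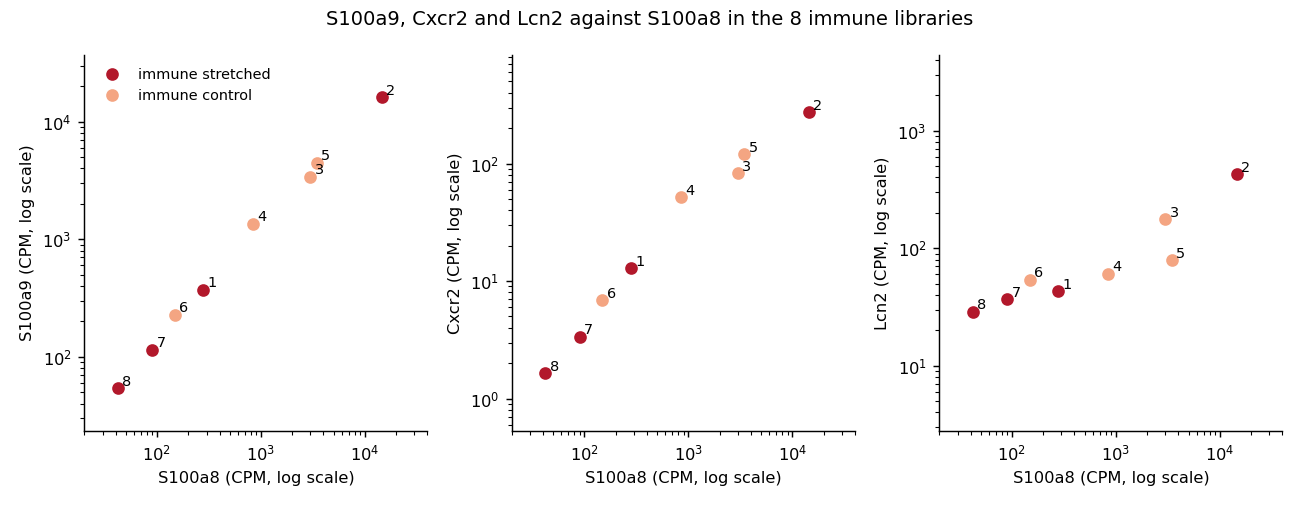
*S100a9*, *Cxcr2* and *Lcn2* against *S100a8* in the 8 immune libraries, each axis in CPM on a log scale, with the title number beside each point. *S100a9* and *Cxcr2* rise with *S100a8* over its 344-fold span, whereas *Lcn2* spans 14.8-fold.

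*Retnlg* (ENSMUSG00000022651, chromosome 16, 48872621 to 48874496, plus strand) encodes resistin-like gamma, a secreted cysteine-rich protein of rodent neutrophils. It had 27.4, 1403, 12.9 and 4.88 CPM in stretched immune libraries 1, 2, 7 and 8, against 130, 89.2, 416 and 32 CPM in control immune libraries 3, 4, 5 and 6. Stretched library 2 lay above all 4 controls and the other 3 stretched libraries lay below all 4. Stretched stromal libraries 5 to 8 had 29, 8, 25 and 4 reads (0.148 to 1.27 CPM), against 0, 0, 0 and 5 reads in control stromal libraries 1 to 4. A count of 0 allows up to 0.155 to 0.221 CPM in those 3 controls (3 reads of each library's total, counting error only).

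Of the other resistin-like genes, *Retnla*, a product of alternatively activated macrophages, had 2680 to 6959 CPM in stretched and 770 to 40397 CPM in control immune libraries. Its highest library was control 5, and stretched library 2 had 4324 CPM. *Retn*, resistin, had 4.7, 23.4, 2.45 and 1.79 CPM in stretched immune libraries 1, 2, 7 and 8, against 10.8, 6.8, 16.2 and 1.8 CPM in control immune libraries 3, 4, 5 and 6. Like *Retnlg* it was highest in stretched library 2, and its log2 fold change was 0.22 with that library and -1.64 without it. Of the 2 such genes tested, 0 were called in either fraction after stretch (edgeR, 0 with an unadjusted p under 0.05).

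*Lcn2* (ENSMUSG00000026822, chromosome 2, 32384633 to 32388252, minus strand) encodes lipocalin 2, a specific granule protein that sequesters bacterial siderophores and is also made by epithelial and mesenchymal cells. It had 43, 427, 36.8 and 28.9 CPM in stretched immune libraries 1, 2, 7 and 8, against 177, 60.9, 79.2 and 53.9 CPM in control immune libraries 3, 4, 5 and 6. As for *Retnlg*, 1 stretched library lay above and 3 lay below all the controls, but the whole span was only 14.8-fold. Stretched stromal libraries 5 to 8 had 11.3, 8.61, 4.36 and 3.82 CPM and control stromal libraries 1 to 4 had 11.1, 6.45, 7.01 and 5.33 CPM. Each stromal library held at least 98 *Lcn2* reads, so that this is the member with the best-measured stromal level.

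*Lcn2* took a larger share of the 9 genes' reads in the stromal than in the immune libraries. It took 43.8 to 75% in stretched and 43.1 to 77.8% in control stromal libraries, against 1.3 to 21.7% in stretched and 0.933 to 11.5% in control immune libraries. *S100a8* and *S100a9* together took 72 to 93.4% in stretched and 80.3 to 94.8% in control immune libraries, and 6.06 to 48% in stretched and 6.02 to 52.6% in control stromal libraries. In stretched stromal library 5 and control stromal library 4 the pair took more reads than *Lcn2* (48% against 43.8% and 52.6% against 43.1%). *Lcn2* reads were 0.0229 to 0.686 times those of *S100a8* in the immune libraries, a 30-fold range, with the largest ratios in the libraries poorest in *S100a8*.

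**Figure D3:**
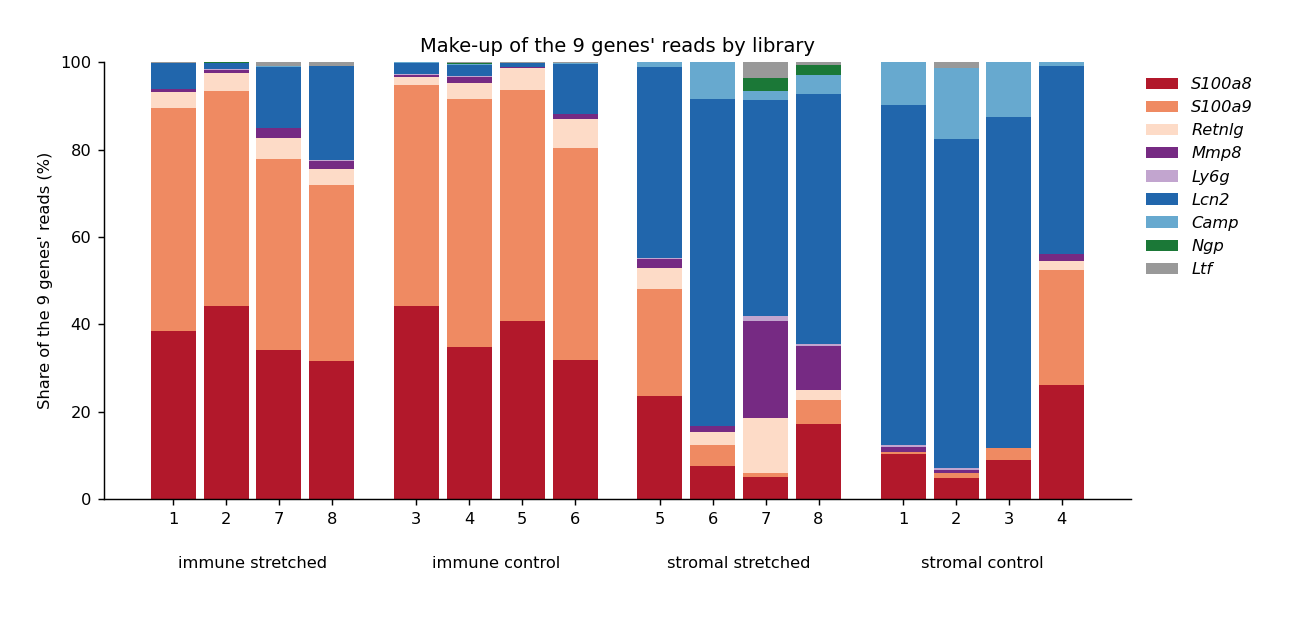
Share of the 9 genes' reads taken by each gene (percent of their summed reads) in each library. Immune libraries are dominated by *S100a8* and *S100a9*, and 43.1 to 77.8% of the reads fall on *Lcn2* in stromal libraries.

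Of the specific granule genes, *Ngp*, *Camp* and *Ltf* were near the floor of detection in most libraries. *Ngp* (ENSMUSG00000032484, chromosome 9, 110419747 to 110423012, plus strand), the cystatin-related neutrophilic granule protein, had 0, 349, 0 and 0 reads in stretched immune libraries 1, 2, 7 and 8, against 5, 9, 7 and 0 reads in control immune libraries 3, 4, 5 and 6. The 349 reads of stretched library 2 are 49.7 CPM, whereas the 3 zeros beside it allow up to 0.149 to 0.282 CPM. In the stromal fraction it had 6 reads in stretched library 7 and 4 in stretched library 8, the libraries with receptor-gene reads, and 0 in the other 6 libraries. The part of those receptor-gene reads in the stromal *Ngp* reads was not tested.

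*Camp* (ENSMUSG00000038357, chromosome 9, 109847379 to 109849617, minus strand), the mouse cathelicidin, a membrane-disrupting antimicrobial peptide, had 1, 42, 17 and 1 reads in stretched immune libraries 1, 2, 7 and 8. Control immune libraries 3, 4, 5 and 6 had 2, 13, 3 and 4 reads. The stromal fraction held as many, with 6, 21, 4 and 8 reads in stretched libraries 5 to 8 and 19, 27, 18 and 2 reads in control libraries 1 to 4. As a mean that is 0.424 ± 0.359 CPM in stretched and 1.01 ± 0.62 CPM in control stromal libraries, against 1.79 ± 2.83 CPM in stretched and 1.65 ± 2.18 CPM in control immune libraries (SD, n = 4 each). The immune and stromal levels of *Camp* overlapped under both treatments, as did those of *Ngp*. Its lowest stromal library, control 4, was among the highest of that fraction for *S100a8*.

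*Ltf* (ENSMUSG00000032496, chromosome 9, 111019271 to 111042767, plus strand), the iron-binding protein lactoferrin, had 4, 45, 32 and 20 reads in stretched immune libraries 1, 2, 7 and 8, against 2, 14, 10 and 5 reads in control immune libraries 3, 4, 5 and 6. As CPM these are 0.376, 6.41, 1.96 and 0.995 in stretched and 0.414, 5.29, 2.22 and 0.75 in control libraries, so that stretched library 2 and control library 4 were close. Control library 4 is the one with most receptor-gene reads, and whether those reads bear on its *Ltf* level was not tested. The stromal fraction held 0, 0, 7 and 1 reads in stretched libraries 5 to 8 and 0, 2, 0 and 0 in control libraries 1 to 4. *Camp*, *Ngp* and *Ltf* lie on chromosome 9 in that order, with 570129 bases between the first pair and 596258 between the second.

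*Mmp8* (ENSMUSG00000005800, chromosome 9, 7558456 to 7568485, plus strand) encodes neutrophil collagenase, a granule protease that cuts fibrillar collagen. It had 4.32, 168, 5.75 and 2.44 CPM in stretched immune libraries 1, 2, 7 and 8, against 30, 32.9, 18.7 and 5.1 CPM in control immune libraries 3, 4, 5 and 6. Apart from stretched library 2, 1 stretched library (7) reached above the lowest control. Stretched stromal libraries 5 to 8 had 12, 3, 44 and 18 reads and control stromal libraries 1 to 4 had 2, 1, 0 and 4 reads. The highest of these, stretched library 7, is the stromal library with most receptor-gene reads, and whether those reads bear on it was not tested.

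*Ly6g* (ENSMUSG00000022582, chromosome 15, 75155240 to 75159126, plus strand) encodes a lipid-anchored surface protein used to mark mouse neutrophils. It had 7, 768, 1 and 1 reads in stretched immune libraries 1, 2, 7 and 8, against 42, 16, 48 and 1 reads in control immune libraries 3, 4, 5 and 6. In CPM stretched library 2 stood at 109, against 6.05 to 10.7 in controls 3, 4 and 5 and 0.15 in control 6. No stromal library had more than 2 reads. The gene belongs to a family of similar copies, so its reads are uncertain where the counting, whose treatment of reads with several matches is not given in the sources used here, could split them.

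Per kilobase of the principal transcript, the order of the 9 genes in the immune fraction was *S100a9* (median level 1668 CPM per kb over 8 libraries), *S100a8* (1151), *Retnlg* (102), *Lcn2* (62.7), *Mmp8* (5.04), *Ly6g* (3.56), *Camp* (0.836), *Ltf* (0.538) and *Ngp* (0.423). *S100a9* was above *S100a8* and *S100a8* above *Retnlg* in 8 of 8 libraries, as was *Lcn2* above *Mmp8*. *Retnlg* was above *Lcn2* in 4 of 8 libraries, *Ly6g* above *Camp* in 4 of 8 and *Ltf* above *Ngp* in 4 of 8, so these neighbours have no fixed order. In the stromal fraction *Lcn2* led (median 7.35 CPM per kb), followed by *S100a8* (2.07), *Camp* (0.827) and *S100a9* (0.605).

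Comparing stretched with control immune libraries asks whether neutrophil transcripts differ in skin leukocytes 6 h after stretching. With all 8 libraries, 7 of the 9 genes had enough reads to be tested and 0 of 7 were called, where 0 of 14183 genes (0%) were called over the whole table (edgeR, quasi-likelihood, adjusted p below 0.05 by Benjamini-Hochberg). At an unadjusted p under 0.05 there were 0 of the 7 and 2467 of all genes. Limma-voom with quality weights, which called 888 of all genes, called 0 of the 7. DESeq2, which called 781 of all genes, gave an adjusted p for 3 members and called 0 of them. *Ngp* and *Camp* did not pass the filter on low counts. The median log2 fold change of the 7 was 1.49, against -0.02 over all genes tested. None of the 7 separated stretched from control libraries without overlap, as 10.9% of all genes tested did.

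The fold changes carried wide errors. *S100a8* had a log2 fold change of 1.49 ± 1.71 (SE, n = 4 per group, edgeR adjusted p = 0.666) and *S100a9* one of 1.30 ± 1.65 (adjusted p = 0.701). *Retnlg* stood at 1.58 ± 1.62 (adjusted p = 0.626), *Lcn2* at 1.01 ± 0.98 (adjusted p = 0.602) and *Mmp8* at 1.67 ± 1.33 (adjusted p = 0.521). *Ly6g* had the largest value, 2.66 ± 1.96 (adjusted p = 0.490), and *Ltf* the smallest, 0.71 ± 1.02 (adjusted p = 0.739).

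All 7 of these positive values rested on stretched immune library 2 and was negative without it. The log2 fold change was then -3.86 ± 1.13 for *S100a8*, -3.81 ± 1.08 for *S100a9*, -3.59 ± 0.97 for *Retnlg* and -4.77 ± 1.36 for *Ly6g*. It was -2.31 ± 0.60 for *Mmp8*, -1.37 ± 0.47 for *Lcn2* and -0.74 ± 0.85 for *Ltf* (SE, 3 stretched and 4 control libraries). Of the 7, 0 were called in that fit, in which 45 of 14749 genes (0.305%) were called, and the smallest adjusted p among them was 0.0902 for *Mmp8* (edgeR). *Retnlg* and *Lcn2* were lower in each of the 3 remaining stretched libraries than in any control, a separation that 11.2% of all genes tested showed.

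**Figure D4:**
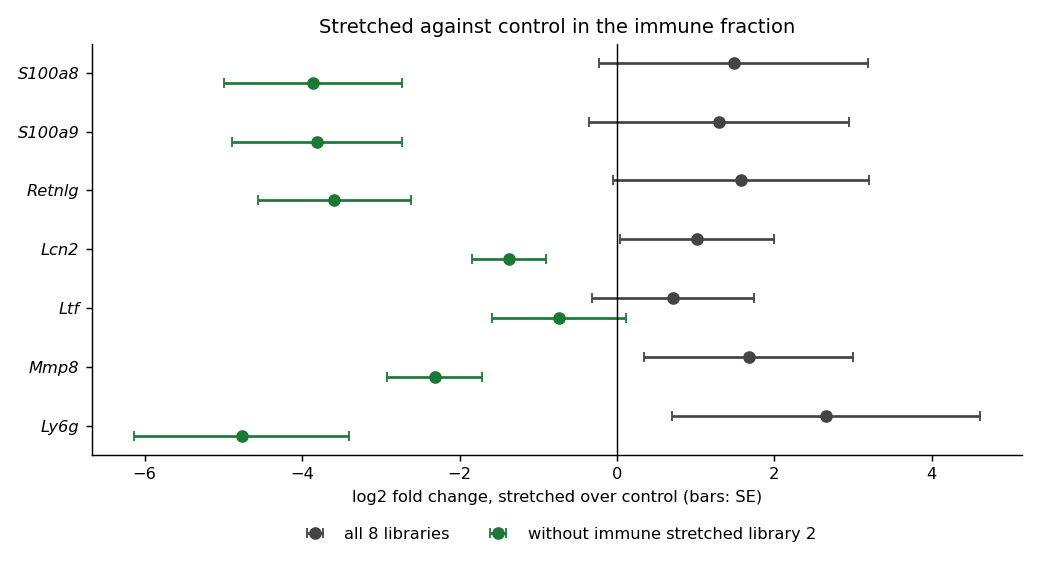
Log2 fold change of stretched over control in the immune fraction for the 7 tested genes, with all 8 libraries and without stretched library 2. Points are edgeR estimates and bars are standard errors. All 7 values are above 0 with library 2 and below 0 without it.

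Marker sums of some other cell types, among them macrophages and fibroblasts, were lower in stretched immune library 2 than in the other 3 stretched libraries. Those of monocytes (2361 CPM), T cells (107 CPM) and eosinophils (244 CPM) lay within the range of the other 3. The 10 macrophage markers summed to 1458 CPM in stretched library 2, and stretched libraries 1, 7 and 8 ranged over 3245 to 5599 CPM, against 1490 to 3929 CPM in the controls. The 6 fibroblast markers summed to 1344 CPM there and to 7483 to 9431 CPM in the other 3, against 1333 to 7077 CPM in the controls. *Csf3r*, *Cxcr2*, *Mmp9* and *Stfa2l1*, the neutrophil markers that are no members apart from *Il1r2*, summed to 104, 1298, 43 and 43.2 CPM in stretched libraries 1, 2, 7 and 8, against 353, 305, 648 and 69.2 CPM in controls 3, 4, 5 and 6. *Il1r2*, the decoy receptor of interleukin 1, was left out of that sum because it also had 548 to 1011 CPM in stretched and 617 to 781 CPM in control stromal libraries. The part of any of these in the differences of the 9 genes was not tested.

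In the stromal fraction 3 of the 9 genes could be tested between stretched and control libraries, and 0 of 3 were called, where 4.98% of 16074 genes were called (edgeR). Of these, 0 had an unadjusted p under 0.05, limma-voom called 0 of 3, and DESeq2 called 0 of the 2 for which it gave an adjusted p. *Lcn2* had a log2 fold change of -0.18 ± 0.40 (SE, adjusted p = 0.806), *S100a8* one of 0.40 ± 0.86 (adjusted p = 0.804) and *Camp* one of -1.33 ± 0.73 (adjusted p = 0.268). The value of *S100a8* was -1.08 without stretched stromal library 5, and that of *Lcn2* ran from -0.57 to 0.08 as each library was left out. None of the 3 separated the groups without overlap, as 17.6% of all genes tested did.

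The immune and stromal fractions were compared within each treatment to see where the 9 genes are transcribed. In stretched skin 5 of the 9 could be tested and all 5 were higher in the immune fraction, where 49% of 17116 genes were called and 23.9% were called higher (edgeR). Passing the low-count filter takes reads in as many libraries as 1 group holds, so the immune libraries alone can meet it. *S100a9* had 144, 12, 2 and 10 reads in stretched stromal libraries 5 to 8 and *Retnlg* had 29, 8, 25 and 4. For genes this low in stromal libraries, being tested already required higher immune counts, so their direction was largely set by the filter. The 5 tested genes also had every immune library above every stromal library, as 20.4% of all genes did. The log2 fold change was 11.18 ± 2.46 for *S100a8* (adjusted p = 0.00454) and 11.54 ± 2.63 for *S100a9* (adjusted p = 0.00538). It was 9.42 ± 2.16 for *Retnlg* (adjusted p = 0.00559), 6.23 ± 1.62 for *Mmp8* (adjusted p = 0.0101) and 4.62 ± 1.07 for *Lcn2* (adjusted p = 0.00579). Without stretched immune library 2 these were 6.01, 6.62, 4.43, 2.44 and 2.42 and kept their calls. The value was 12.72 for *S100a8* and 14.15 for *S100a9* without stretched stromal library 5, and 7.04 for *Mmp8* without stretched stromal library 7. Without stretched stromal libraries 7 and 8 together 1 of 8 tested members was called, *Ltf*, and the 5 above had adjusted p of 0.0633 to 0.0805. The share of all genes called in that fit is not given here, so this loss of calls cannot be set against other genes.

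In control skin 6 of the 9 were tested and 5 were higher in the immune fraction, where 49.4% of 15142 genes were called and 26.6% were called higher (edgeR). Here too the immune libraries alone could meet the filter. *Retnlg* had 0, 0, 0 and 5 reads in control stromal libraries 1 to 4. The 5 genes called higher had every immune library above every stromal library, as 27.3% of all genes did. The log2 fold change was 10.24 ± 1.29 for *S100a8* (adjusted p = 0.000105), 11.17 ± 1.58 for *S100a9* (adjusted p = 0.00022) and 11.01 ± 1.27 for *Retnlg* (adjusted p = 5.76e-05). *Mmp8* stood at 7.41 ± 0.82 (adjusted p = 4.25e-05) and *Lcn2* at 3.56 ± 0.47 (adjusted p = 0.000145). *Camp* had a value of 0.30 ± 0.86 (adjusted p = 0.792) and did not pass. Without control stromal library 4, which held the 5 *Retnlg* reads and most *S100a9* reads of its group, the value was 11.05 for *S100a8*, 13.91 for *S100a9*, 13.74 for *Retnlg* and 8.02 for *Mmp8*. Without control immune library 5 it was 9.54 for *S100a8*, 10.43 for *S100a9* and 9.72 for *Retnlg*, and without control immune library 3 it was 2.95 for *Lcn2*. All these kept their calls. *Ltf* and *Ly6g*, too rare to be tested, had 31 and 107 reads in the control immune group against 2 and 2 in the control stromal group.

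The stretch effect in the immune fraction minus that in the stromal fraction was tested over all 16 libraries. Of the 9 genes 0 were called, as were 0 of 18295 genes (0%, edgeR), and 0 of the 9 had an unadjusted p under 0.05. Limma-voom called 0 of the 9, and DESeq2 called 0 of the 6 for which it gave an adjusted p. The difference was 1.14 ± 2.10 on the log2 scale for *S100a8* (adjusted p = 0.787), 0.57 ± 2.33 for *S100a9* (adjusted p = 0.914) and 1.26 ± 1.13 for *Lcn2* (adjusted p = 0.529). Without control immune library 4 and stretched immune library 2 together 2 of 8 tested members were called, *Retnlg* and *Mmp8*, both with a lower stretch effect in the immune fraction. The share of all genes called in that fit is not given here, so this count cannot be weighed. Both genes had few reads in control stromal libraries 1 to 4. These were 0, 0, 0 and 5 for *Retnlg* and 2, 1, 0 and 4 for *Mmp8*.

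Other genes of the neutrophil programme, from lists chosen by function, were read beside the 9. Of the primary granule genes, *Mpo*, myeloperoxidase, had 0 to 0.855 CPM in stretched immune libraries and 0.207 to 6.05 CPM in control immune libraries, where the highest, library 4, is the one with most receptor-gene reads. *Elane*, neutrophil elastase, had 4 reads over the stretched and 14 over the control immune group, all 14 in library 4. *Ctsg*, cathepsin G, which mast cells also make, was higher in the immune fraction in stretched skin (log2 fold change 7.16 ± 0.75, edgeR adjusted p = 6.42e-05) and in control skin (7.97 ± 1.08, adjusted p = 0.000545). *Prtn3*, proteinase 3, was lower in the immune than in the stromal fraction in control skin (-2.09 ± 0.73, adjusted p = 0.0345). Of this list of 6, 1 gene was tested for stretch in the immune fraction and 0 were called.

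Of 13 other specific and gelatinase granule genes, 11 were tested between fractions and all 11 were higher in the immune fraction in stretched skin, as were all 11 tested in control skin, where 23.9% and 26.6% of all genes were called higher. As above, genes low in stromal libraries passed the filter only if high in immune ones, which favours this direction. After stretch, 0 of 12 were called in the immune and 0 of 6 in the stromal fraction (edgeR), with 0 and 4 at an unadjusted p under 0.05. *Hp*, haptoglobin, had 457 ± 831 CPM in stretched and 219 ± 128 CPM in control immune libraries (SD, n = 4 each). *Mmp9*, gelatinase B, had 39.4 ± 60.6 CPM in stretched and 26.4 ± 20.8 CPM in control immune libraries. The log2 fold change was 1.59 for *Hp* and 0.996 for *Mmp9*, and without stretched library 2 it was -2.42 for *Hp* and -1.61 for *Mmp9*. *Cybb* and *Cyba*, subunits of the phagocyte oxidase, had stromal stretch values of 2.34 ± 0.77 (adjusted p = 0.0874) and -0.83 ± 0.25 (adjusted p = 0.0753), neither of which passed.

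Of 15 neutrophil surface receptors, 14 were higher in the immune fraction under each treatment (23.9% of all genes in stretched and 26.6% in control skin), among them *Ptafr*, the receptor of platelet-activating factor (8.93 ± 0.60 in stretched and 9.87 ± 0.79 in control skin, log2). The receptors *Ltb4r1* for leukotriene B4 (1.45 ± 0.52, adjusted p = 0.219), *Fcgr3* for immunoglobulin G (1.35 ± 0.59, adjusted p = 0.277) and *C5ar1* for complement C5a (1.23 ± 0.64, adjusted p = 0.335) had positive stretch values in the immune fraction. These did not pass (edgeR, 0 of 15 called, 2 at an unadjusted p under 0.05), and without stretched library 2 they were 0.74 for *Ltb4r1*, 0.76 for *Fcgr3* and 0.28 for *C5ar1*. *Ptafr* had a negative value of -0.40, and -0.94 without that library. Of 13 other cytosolic and secreted products of mature neutrophils, 9 were tested between fractions and all 9 were higher in the immune fraction under each treatment, beside the same shares of all genes. For this list and the receptors the filter favours the immune direction, as above. Of the 13, 0 of 11 tested in the immune fraction were called after stretch (edgeR, 0 at an unadjusted p under 0.05). In the stromal fraction 1 of 7 was called, where 4.98% of all genes tested were called. This was *G0s2*, a lipase inhibitor also found in fat cells, which fell by 1.23 ± 0.25 on the log2 scale (edgeR adjusted p = 0.0424). Its call was lost under 10 of 18 alternatives.

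Among 12 attractants and growth factors of neutrophils, 1 of 8 tested was called after stretch in the stromal fraction, where 4.98% of all genes were called. This was *Csf3*, granulocyte colony-stimulating factor. It had 13.7, 11, 6.76 and 9.35 CPM in stretched stromal libraries 5 to 8, against 5.23, 2.84, 2.64 and 1.76 CPM in control stromal libraries 1 to 4. These did not overlap, as for 17.6% of all genes tested (log2 fold change 1.61 ± 0.36, edgeR adjusted p = 0.0442). The call was lost under 10 of 18 alternatives. In the immune fraction the value of *Csf3* was 0.92 ± 0.44 (adjusted p = 0.306), or 0.37 without stretched immune library 2. There *Cxcl1*, a chemokine that draws neutrophils through Cxcr2, had 0.94 ± 0.34 (adjusted p = 0.220). None of the 12 was called there (edgeR, 3 at an unadjusted p under 0.05). *Cxcl1* was lower in the immune than in the stromal fraction in stretched (-1.89 ± 0.38, adjusted p = 0.00307) and control skin (-2.71 ± 0.44, adjusted p = 0.000539). Most of this list went the other way, with 9 of 12 higher and 3 lower in the immune fraction in stretched skin (edgeR). In control skin 6 of 10 tested were higher and 1 was lower. Over all genes tested 49% and 49.4% were called in either direction, and 23.9% and 26.6% were called higher.

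The 8 genes listed as receptors of these proteins gave 7 tested after stretch in each fraction, of which 0 were called (edgeR, 0 and 2 at an unadjusted p under 0.05 in the immune and stromal fraction). *Tlr4*, which binds S100A8 and S100A9, had 22.6 ± 21.3 CPM in stretched and 17.2 ± 5.93 CPM in control immune libraries, and 24.6 ± 13.8 CPM in stretched and 12.9 ± 4.16 CPM in control stromal libraries (SD, n = 4 each). *Slc22a17*, a receptor of lipocalin 2, had an immune stretch value of 1.76 ± 0.86 (adjusted p = 0.312). Of 7 transcription factors of granulocyte development, 0 were called after stretch in either fraction (edgeR, 1 in each at an unadjusted p under 0.05). *Spi1*, the ETS factor PU.1, had an immune stretch value of 1.41 ± 0.45 (adjusted p = 0.195), or 0.91 without stretched library 2, and *Cebpe*, which drives specific granule genes, had 63 reads over the stretched and 32 over the control immune group.

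Of 14 other S100 genes, 3 of 12 tested fell after stretch in the stromal fraction, where 4.98% of all genes were called in either direction, namely *S100a13* (-1.18 ± 0.23, adjusted p = 0.0424), *S100a11* (-0.99 ± 0.24, adjusted p = 0.0466) and *S100a6* (-1.01 ± 0.25, adjusted p = 0.0485, edgeR). These 3 calls, like those of *Csf3* and *G0s2*, were each lost without any 1 of stretched stromal libraries 6, 7 and 8 or control stromal libraries 1, 2 and 3 (adjusted p up to 0.138), and that of *S100a11* also without control stromal library 4. The median log2 fold change of the 12 was -0.85, against 0.01 over all genes tested. In the immune fraction 0 of 9 were called (edgeR, 2 at an unadjusted p under 0.05), and *S100a4*, a calcium-binding protein of motile cells, had 77.1 ± 14.7 CPM in stretched libraries, against 237 ± 28.9 CPM in the controls (SD, n = 4 each, log2 fold change -1.41 ± 0.31, adjusted p = 0.134). *S100a11* had 1030, 4383, 1452 and 1109 CPM in stretched immune libraries 1, 2, 7 and 8, against 2160, 895, 1724 and 1076 CPM in control immune libraries 3, 4, 5 and 6, and its log2 fold change was 0.77 with stretched library 2 and -0.32 without it. *S100a4* was higher in the immune fraction under both treatments and *S100a16* was lower.

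The genes whose pattern over the 8 immune libraries was most like that of the 9 were sought among 8997 genes with a mean of at least 10 CPM there and a read in each library. Likeness was the root mean square distance, in log2 units, between a gene's centred log2 CPM and the mean centred profile of the 7 tested members. The nearest 8 were *H2-Q10* (0.228), *Hp* (0.287), *Slpi* (0.302), *Trem1* (0.351), *Trem3* (0.377), *Clec4d* (0.382), *Wfdc21* (0.390) and *Acod1* (0.397), where the median gene stood at 2.36. Of the members, *Mmp8* (0.562) and *Retnlg* (0.567) lay closest to that profile, which they helped to form, and *Ltf* (1.76) lay farthest. Without stretched immune library 2 the ranks of the 8 were 1, 3, 4, 8, 7, 2, 9 and 12 in the same order.

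*Slpi*, secretory leukocyte protease inhibitor, had 66.4, 2726, 44.2 and 22.1 CPM in stretched immune libraries 1, 2, 7 and 8, against 624, 420, 830 and 94 CPM in controls 3, 4, 5 and 6. *Trem1*, a receptor that amplifies inflammatory signals in neutrophils and monocytes, had 36.9, 1280, 19.1 and 7.86 CPM in the stretched and 277, 168, 422 and 26.9 CPM in the control libraries. Both were highest in stretched library 2, lowest in stretched libraries 7 and 8, and lowest among controls in library 6, and both were picked for their likeness to the mean profile. *H2-Q10* is a class I histocompatibility gene with near-identical neighbours, so its reads are uncertain.

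**Figure D5:**
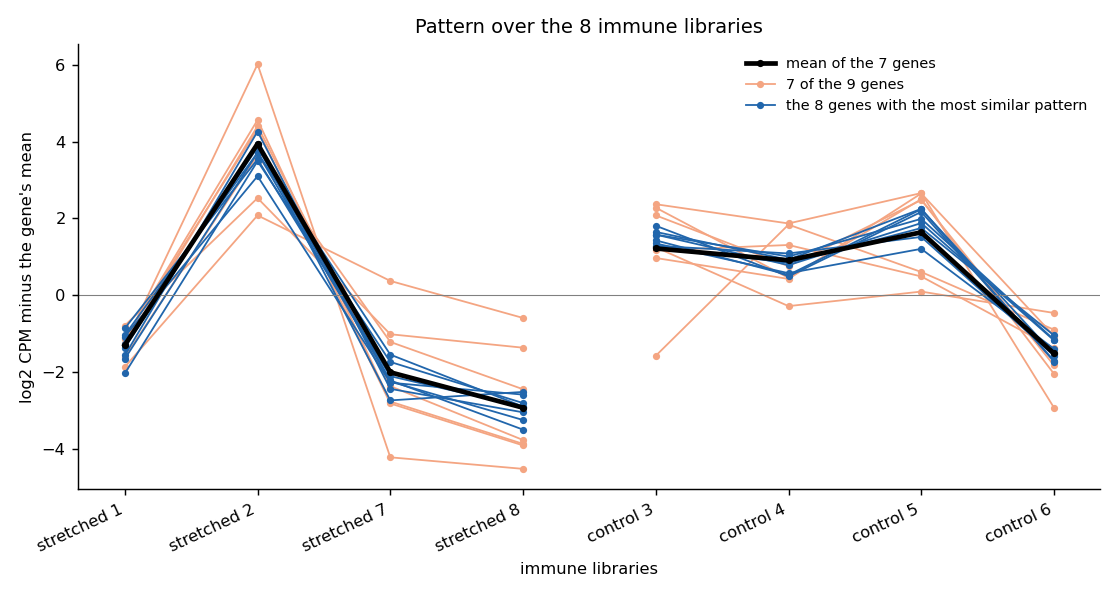
Log2 CPM minus the gene's own mean in each of the 8 immune libraries, for the 7 tested genes, their mean and the 8 genes nearest to that mean. Lines join the values of 1 gene and give no order of libraries. The mean profile is 3.94 in stretched library 2 and -2.92 in stretched library 8.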

How the data were processed

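For 16 libraries of sorted mouse skin cells, the authors deposited unnormalized read counts, 1 row per Ensembl gene. The labels' protocols name SMART-Seq mRNA LP for cDNA synthesis and Nextera XT for library preparation. FastQC 0.11.9, STAR and mm10 are listed in the submitters' processing notes. The sources used here do not give the counting tool, strand setting or annotation. Columns were matched to samples by the description in the labels. GENCODE M21 (GRCm38) named 55394 of 55487 identifiers, and RefSeq gave the promoters. Levels are CPM of the library total.

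Each comparison used its own groups (all 16 libraries for the difference of effects) in edgeR 4.0.16 (R 4.3.3). Low counts were removed by filterByExpr (at least 10, and 15 in total), scaling was by TMM, and the test was quasi-likelihood. A call needs a Benjamini-Hochberg adjusted p under 0.05 over all genes tested. Standard errors derive from the F statistic. The fits were tested on simulated counts. Alternatives were RLE and upper-quartile factors, DESeq2 1.42.0, limma-voom with quality weights (limma 3.58.1), other filters and all 16 libraries in 1 fit. Others were length and GC offsets, a replicate block, and omitted libraries. The quality weights can give a library that departs from its group less influence.

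The members, lists and pairs of libraries omitted together were chosen with earlier results of these data known. The rule named all 9 members, up to 4 genes of each list with the smallest p in a comparison, and the 8 genes nearest in pattern. *Mpo* and *Elane* levels, *Cebpe*, *Csf3r*, *Cxcr2*, *Il1r2*, *Stfa2l1*, *Ptprc*, *Ptafr* after stretch and *Cxcl1* between fractions fall outside it and were named after their values were seen. Floors cover counting error only, since amplified reads without molecular identifiers do not count molecules.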

Additional observations from a re-analysis of the deposited data

Results flagged for a closer look

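Sets of 4 libraries of a gene were examined where the highest library had at least 10 reads. In 13 of 27 such sets, 1 library stood far from the other 3 in CPM. Chance gives about 1 set in 20 only for normally distributed values. The CPM were not put on a log scale here, and *S100a8* alone spanned 344-fold in stretched immune libraries. That rate therefore cannot be applied, and whether 13 sets exceed chance was not tested. Stretched immune library 2 was the high one in 8 of the 13 sets. It had 14494 CPM of *S100a8* (next 279), 16104 of *S100a9* (next 371), 1403 of *Retnlg* (next 27.4) and 427 of *Lcn2* (next 43). It also had 49.7 CPM of *Ngp* (next 0), 168 of *Mmp8* (next 5.75) and 109 of *Ly6g* (next 0.658), and 5.98 CPM of *Camp* (next 1.04). These 8 share 1 library and are not independent.

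Control immune library 4, the library with most receptor-gene reads, was high for *Camp*, at 4.91 CPM against 0.667 CPM in the next control. Stretched stromal library 5 was high for *S100a8* (6.09 CPM, next 1.15) and *S100a9* (6.31 CPM, next 0.547), and stretched stromal library 6 for *Camp* (0.956 CPM, next 0.297). Control stromal library 4 was high for *S100a9*, at 3.27 CPM against 0.257 CPM. The causes were not tested.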

How the results depend on the processing

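Of the 9 genes (1 to 9 tested, by setting), 0 were called after stretch in the immune fraction and 0 in the stromal fraction under each alternative that gave a count, including each omitted library. The direction in the immune fraction was not stable. With limma-voom, whose quality weights can give a library less influence, the log2 fold change was -2.095 for *S100a8*, -2.23 for *S100a9* and -2.58 for *Retnlg*. It was -0.75 for *Lcn2*, -1.10 for *Mmp8* and -2.08 for *Ly6g* in that fit. Without control immune 4 and stretched immune 2 together it was -4.15 for *S100a8*, -4.07 for *S100a9*, -3.87 for *Retnlg*, -1.60 for *Lcn2* and -2.21 for *Mmp8*. As each library was left out the values ran from -3.86 to 2.10 for *S100a8*, -3.81 to 1.95 for *S100a9*, -3.59 to 2.78 for *Retnlg*, -1.37 to 1.58 for *Lcn2*, -2.31 to 2.02 for *Mmp8*, -4.77 to 3.17 for *Ly6g* and -0.74 to 1.31 for *Ltf*. The log2 difference of the summed CPM was 0.91 between group means, -3.205 between medians and -3.80 without those 2 libraries, and ran from -3.59 to 1.41 over single omissions.

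In the stromal fraction *Lcn2* stood at 0.0783 with length and GC offsets and at 0.36 without stretched stromal 7 and 8, and single omissions gave -0.57 to 0.0832 for *Lcn2* and -1.08 to 1.25 for *S100a8*. Immune against stromal in control skin, *Camp* was -0.48 with limma-voom and -0.86 to 0.52 over single omissions. The members called there were 8 of 9 without a filter, and single omissions gave 5 to 7. In stretched skin the count was 8 of 9 without a filter, 8 of 9 with all 16 libraries in 1 fit and 1 of 8 without stretched stromal 7 and 8, and single omissions gave 5 to 6. DESeq2 gave no adjusted p for the 5 members tested there and has no count. In the main fits 49.4% of all genes were called between fractions in control skin and 49% in stretched skin. The shares of all genes called under the alternatives of this paragraph are not given here, so its counts do not set the members apart. For the difference of effects the count was 2 of 8 without control immune 4 and stretched immune 2. Its value was -2.39 for *S100a8*, -3.05 for *S100a9* and -0.0074 for *Lcn2* with limma-voom, and -4.375, -4.66 and -1.25 without those 2 libraries. It was -0.36 for *S100a9* without stretched stromal 7 and 8. Single omissions gave -4.23 to 2.64 for *S100a8*, -4.54 to 3.13 for *S100a9*, -1.20 to 1.68 for *Lcn2* and -0.32 to 3.36 for *Camp*. The causes were not tested.

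The title numbers were not used to pair the samples, since the labels do not say whether a number marks an animal. Same-numbered libraries had correlations of -0.121 to 0.162, and no number occurs in both groups of a fraction. Correlations between different fractions cannot decide whether libraries with the same title number share an animal. In a fit of all 16 libraries with a replicate block for that number, the members called were 0 of 9 after stretch in each fraction, 8 of 9 between fractions in control skin and 5 of 9 in stretched skin. The shares of all genes called in that fit are not given here. The immune stretch values under the block were -0.44 for *S100a8*, -0.86 for *Retnlg*, -3.08 for *Ltf*, -1.77 for *Mmp8* and -6.63 for *Ly6g*. The stromal ones were 2.50 for *S100a8* (0.40 without the block), 0.95 for *Lcn2*, 0.40 for *Camp* and 0.68 for *G0s2*, and the differences were -2.935 for *S100a8*, -1.88 for *S100a9*, -0.38 for *Lcn2* and -0.83 for *Camp*. The stromal calls of *Csf3*, *G0s2* and *S100a13* were lost under 10 of 18 alternatives and those of *S100a11* and *S100a6* under 11 of 18. Under the block *Mmp8* lost its call between fractions in stretched skin (2.55, adjusted p = 0.0657). Low counts limit *Ngp*, *Camp*, *Ltf* and *Ly6g*, and the control immune libraries are the shallowest.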
